A study of Mus musculus with 24 samples.

Results

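The 10 genes described here are 4 NF-kB transcription factor genes (Nfkb1, Nfkb2, Rela and Relb), 2 genes for inhibitors of the pathway that the pathway itself induces (Nfkbia and Tnfaip3), 3 cytokine genes (Tnf, Il1a and Il1b) and the adhesion gene Icam1. They were chosen by name, with earlier results of these data known, from the 55417 genes of a table of read counts. The mice were adults, aged 2 to 4 months. RNA of their dissected entorhinal cortex was sequenced as 24 libraries in 4 groups of 6. All groups, vehicle included, had the genotype label tg/tg for the cross of Nop-tTA Line S with TRE-GlyCl-YFP Line 9531. In such a cross the tTA driver turns on a tetracycline-responsive transgene, here a glycine-receptor-based chloride channel (GlyCl) with YFP, and opening the channel silences the neurons that carry it. The neuropsin promoter of the driver is known mainly for expression in superficial layers of the entorhinal cortex. The groups were vehicle (4 females and 2 males) and tissue taken 1, 2 and 3 days after channel activation (3 females and 3 males each). The labels name no activating agent, and they do not say when the vehicle mice were killed. Each library has its own animal number, but the labels do not state that each number is a separate animal, so p-values measure the spread between these libraries. RNA of the whole dissected cortex was measured, so the silenced neurons are a share of the sampled cells that is not known here.

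NF-kB is a family of dimeric transcription factors that inhibitor proteins hold in the cytoplasm of resting cells. Signals from receptors for TNF, interleukin 1 and microbial or damage-derived ligands lead to phosphorylation and loss of the inhibitor, and the dimer enters the nucleus. Among the genes it then induces are its own inhibitors, several of its own subunits, inflammatory cytokines and adhesion molecules, so the RNA of these targets is a common readout of the pathway, whereas the step from cytoplasm to nucleus itself is not seen in RNA. In brain, microglia, astrocytes, endothelial cells and neurons all carry parts of the pathway, and in the uninjured brain Tnf, Il1a and Il1b RNA is scarce and mostly microglial.

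The DNA site bound by NF-kB, the kB site, was looked for in the 250 bases before the annotated start of each member, because several members are textbook targets with such sites. RefSeq promoters (build GRCm38.p6) were at hand for 8 of the 10 members, with 11 start sites between them; Nfkb1 and Relb were not among them. Both strands were searched for the classical kB consensus of 10 letters, and for a shorter and looser form, GGNNNTTCC, of 9 letters, matches of which can overlap the consensus. The consensus was found in 3 members (Nfkb2, Nfkbia and Tnfaip3) and in 5 of the 11 start sites, against 3.90% of 32841 promoters in the table. The short form was found in these 3 members and in Tnf and Icam1, in 8 of the 11 start sites, against 15.7% of the promoters. Neither was found before the start of Rela, Il1a or Il1b. These promoters are shown because they pair with the values given for their genes further on: Nfkb2 (start site 1, chr19:46304487-46304736, plus strand) and Nfkbia (chr12:55492648-55492897, minus strand) with consensus matches, Icam1 (chr9:21015690-21015939, plus strand) with the short form alone, and Il1a (chr2:129309973-129310222, minus strand) with neither. Each is written 5′ to 3′ and ends at the last base before the start, and capitals mark the matches of either form.
Nfkb2: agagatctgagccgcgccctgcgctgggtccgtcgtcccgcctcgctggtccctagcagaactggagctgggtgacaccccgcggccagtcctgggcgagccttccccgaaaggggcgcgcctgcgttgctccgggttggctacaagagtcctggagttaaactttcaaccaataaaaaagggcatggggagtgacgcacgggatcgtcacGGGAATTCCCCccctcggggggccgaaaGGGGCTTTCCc
Nfkbia: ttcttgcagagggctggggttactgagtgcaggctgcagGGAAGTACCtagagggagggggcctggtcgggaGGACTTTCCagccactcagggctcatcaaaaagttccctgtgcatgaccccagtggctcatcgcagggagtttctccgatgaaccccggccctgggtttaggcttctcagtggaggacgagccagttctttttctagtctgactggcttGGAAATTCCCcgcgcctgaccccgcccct
Icam1: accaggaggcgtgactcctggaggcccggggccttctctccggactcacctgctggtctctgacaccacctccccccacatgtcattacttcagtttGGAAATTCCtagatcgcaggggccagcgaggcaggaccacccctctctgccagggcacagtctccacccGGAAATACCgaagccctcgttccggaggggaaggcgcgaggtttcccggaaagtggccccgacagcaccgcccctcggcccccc
Il1a: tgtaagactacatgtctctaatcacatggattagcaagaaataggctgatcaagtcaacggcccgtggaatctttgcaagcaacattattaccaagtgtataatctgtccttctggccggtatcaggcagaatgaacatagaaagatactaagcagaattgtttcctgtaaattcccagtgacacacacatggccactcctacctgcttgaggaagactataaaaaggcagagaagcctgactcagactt
The consensus matches lay within 39 to 2 bases before the start in Nfkb2 and 29 to 20 bases before it in Nfkbia, and the short form lay 153 to 145 and 84 to 76 bases before it in Icam1. A match is a stretch of letters and not evidence of binding, and these windows leave out enhancers.

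Depth was similar across libraries, with 16.6 to 23.7 M reads per library. Counts were compared with edgeR's quasi-likelihood test, with a term for sex, over the 16767 genes that passed a filter on low counts, and adjusted p-values (Benjamini-Hochberg) were taken over all of them. A gene was called at an adjusted p under 0.05. Levels are given in CPM, the reads of a gene scaled to its library's total. In 8 libraries (1 vehicle, 2 day 1, 2 day 2 and 3 day 3) Ttr, the choroid plexus transcript transthyretin, stood at 562 to 1174 CPM, against 8.28 to 25.9 CPM in the other 16. The members' larger differences are also given without these libraries, and a call of a pathway gene that ends without them is named as such. Markers of cortical neurons summed to 9536 to 10283 CPM across the libraries. Of 16767 genes, 11 were called at day 1 (0.0656%), 11 at day 2 (0.0656%) and 103 at day 3 (0.614%) against vehicle, and 109 at day 3 against day 1 (0.65%). The 3 comparisons with vehicle share the vehicle libraries and are not independent of each other.

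None of the 8 members that passed the filter was called on any day, by this test: 0 of 8 at day 1, day 2 and day 3 against vehicle, and 0 of 8 at day 3 against day 1. Their values were not alike in pattern. Nfkb1 and Nfkbia had log2 fold changes between -0.09 and 0.06 on all 3 days. Tnfaip3 and Relb stood lower at day 1 (-0.19 and -0.46). Rela stood higher on all 3 days (0.17, 0.12 and 0.19), and Nfkb2, Il1a and Icam1 had their highest values at day 3. None of these differences passed the threshold after adjustment. Before adjustment, p was under 0.05 for 2 of 8 members at day 1, 0 of 8 at day 2 and 4 of 8 at day 3. The shares of all genes tested were 7.25%, 5.2% and 5.64%. The 2 at day 1 were Rela, which was higher, and Relb, which was lower. At day 3 all 4 were higher than vehicle, where 3.58% of all genes tested had such a p and a higher value. One of the 4 is Il1a, which passed the filter only through day 3, the group where it was highest, and without it the count was 3 of 7. The median log2 fold change of the 8 members was 0.01 at day 1, 0.02 at day 2 and 0.12 at day 3, against medians of 0.00 over all genes tested on each day, and the day 3 median without Il1a was 0.052. These counts and medians are descriptions, given with no test, and the members were chosen with earlier results of these data known. A joint edgeR test of the 3 days also called 0 of 8 members, where 0.644% of all genes were called. Its smallest adjusted p among them was 0.216, for Relb. These counts are not over all 10 members. Tnf and Il1b did not pass the filter. In bulk tissue, fewer or more cells of a type and less or more RNA per cell cannot be told apart.

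Per kilobase of exon, using transcript models of another annotation than the authors' and vehicle libraries only (mean ± SD, n = 6), the members spanned a wide range. The exons of all annotated transcripts of a gene were merged, to 12061 bases for Nfkb1 and 3885 for Relb, and the order depends on these lengths. In CPM without lengths, the vehicle mean was 16.9 for Nfkb1 and 6.98 for Relb. Nfkbia, which encodes the inhibitor IkB-alpha, was highest at 12.4 ± 1.60 CPM per kb. Rela, which encodes the p65 subunit, followed at 6.51 ± 0.214 CPM per kb. Relb (1.80 ± 0.379) and Nfkb1 (1.40 ± 0.128 CPM per kb) came next with overlapping ranges, and below them Tnfaip3 (1.00 ± 0.182) and Nfkb2 (0.753 ± 0.129 CPM per kb), which also overlapped each other. Icam1 stood at 0.415 ± 0.115 CPM per kb. The cytokines were lowest, at 0.142 ± 0.106 for Il1b, 0.126 ± 0.0865 for Il1a and 0.0258 ± 0.0431 CPM per kb for Tnf, and the ranges of Il1b, Il1a and Tnf overlapped, as did those of Icam1 and Il1b.

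Rela encodes p65, the subunit with a transactivation domain that pairs with p50 in the classical pathway. Its CPM (lowest, median and highest of 6 libraries) were 19.3, 19.8 and 21.2 in vehicle, 20.9, 22.9 and 23.8 at day 1, 19.4, 21.8 and 25.01 at day 2, and 20.7, 22.4 and 26.2 at day 3. At day 1 and again at day 3, 5 of 6 libraries lay above every vehicle library, and vehicle was the tightest group. The log2 fold change was 0.17 ± 0.06 (SE, edgeR adjusted p = 0.473) at day 1, 0.12 ± 0.06 (edgeR adjusted p = 0.959) at day 2 and 0.19 ± 0.06 (edgeR adjusted p = 0.310) at day 3. The 95% interval at day 3 ran from a ratio of 1.05 to 1.25. Without the Ttr-rich libraries the day 3 value was also 0.19, with an edgeR adjusted p of 0.890.

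Relb encodes the partner of p52 in the non-canonical pathway and is itself an NF-kB target. It was the member with the smallest p at day 1. CPM were 5.25, 6.99 and 9.30 in vehicle, 4.34, 4.75 and 6.38 at day 1, 5.07, 6.29 and 6.93 at day 2, and 6.08, 6.49 and 8.11 at day 3. At day 1, 4 libraries lay below the lowest vehicle library, and the other 2 lay inside the vehicle range. The day 1 log2 fold change was -0.46 ± 0.12 (edgeR adjusted p = 0.162), a ratio of 0.612 to 0.863 at the 95% level. DESeq2 gave the same size, -0.46, with an adjusted p of 0.0489, and was the only tool run that called a member at day 1. At day 2 the log2 fold change was -0.15 ± 0.12 and at day 3 -0.04 ± 0.12. Day 3 against day 1 gave 0.42 ± 0.12 (edgeR adjusted p = 0.140), and all 6 day 3 libraries lay above the day 1 median. Without the Ttr-rich libraries the day 1 value was -0.62 (edgeR adjusted p = 0.117), and day 3 against day 1 gave 0.54 (edgeR adjusted p = 0.179).

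Nfkb1 and Nfkb2 encode the precursors p105 and p100, which are cut to p50 and p52 and, uncut, act as inhibitors. Nfkb1 CPM were 15.3, 16.7 and 18.95 in vehicle, 16.0, 17.03 and 19.4 at day 1, 15.003, 17.9 and 19.2 at day 2, and 16.2, 17.7 and 18.5 at day 3, with the groups overlapping throughout. The log2 fold changes were 0.02 ± 0.07, 0.06 ± 0.07 and 0.05 ± 0.07 at days 1, 2 and 3. The day 3 interval bounds its ratio to vehicle between 0.944 and 1.14. Nfkb2 had CPM of 2.67, 3.29 and 4.23 in vehicle, 2.65, 3.62 and 4.16 at day 1, 2.44, 3.49 and 4.58 at day 2, and 4.03, 4.34 and 4.56 at day 3. At day 3 its libraries were bunched near and above the top of the vehicle range, with 4 of 6 above every vehicle library and all 6 above the vehicle median. The log2 fold change was 0.01 ± 0.14 at day 1, -0.03 ± 0.14 at day 2 and 0.28 ± 0.14 (edgeR adjusted p = 0.864) at day 3, where the value without the Ttr-rich libraries was 0.30. Exons of Nfkb2 overlap those of Psd on the opposite strand, and Psd carried 8783 to 12662 reads per library against 44 to 93 for Nfkb2. Whether the counting used strand is not given in the sources used here, so reads of the pair cannot be told apart. Psd itself had a day 3 log2 fold change of -0.07.

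**Figure D1:**
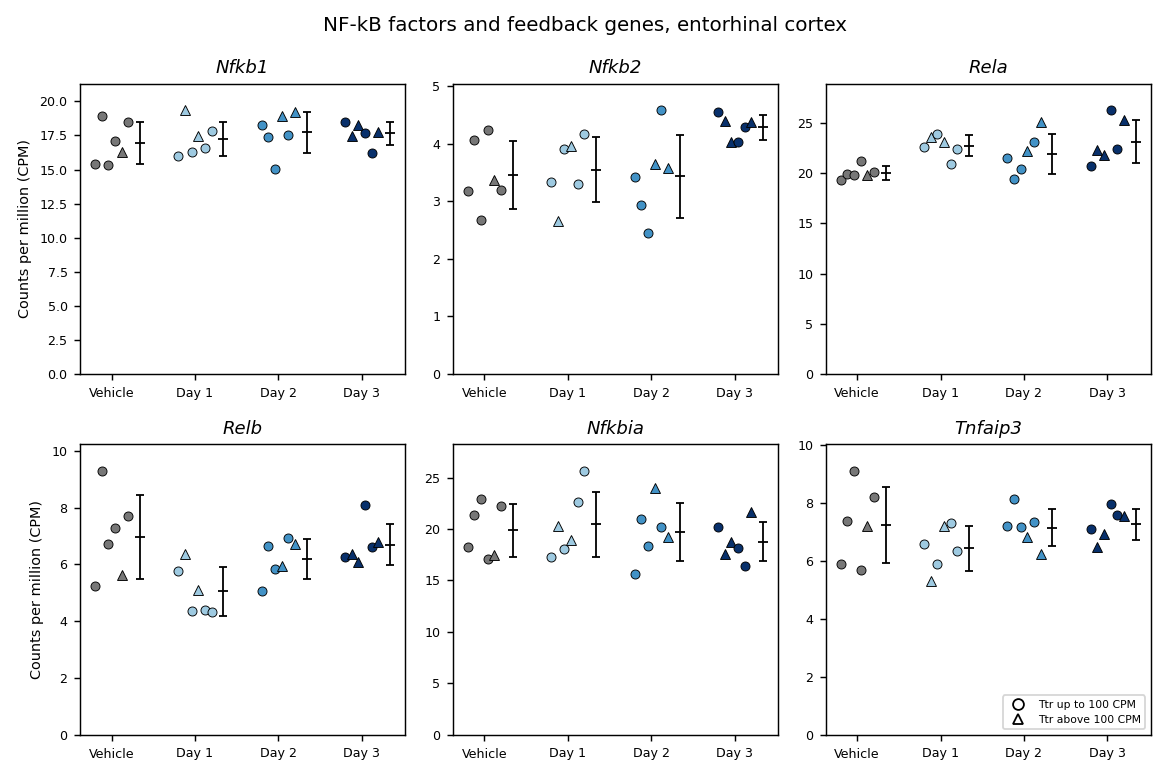
Each point is 1 library, in CPM on a linear axis from 0, for the 4 factor genes and the 2 feedback genes in vehicle and at days 1, 2 and 3. Triangles are libraries with Ttr above 100 CPM and bars are the mean ± SD of 6 libraries. Relb at day 1 sits low, between 4.34 and 6.38 CPM, Nfkb2 at day 3 is bunched between 4.03 and 4.56 CPM, and every group overlaps vehicle.

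The feedback genes Nfkbia and Tnfaip3 are among the fastest and most general NF-kB targets. Nfkbia encodes IkB-alpha, which retrieves NF-kB from the nucleus, and Tnfaip3 encodes A20, a ubiquitin-editing enzyme that shuts off signalling upstream of the kinase complex. Nfkbia had CPM of 17.1, 19.8 and 22.9 in vehicle, 17.3, 19.6 and 25.7 at day 1, 15.6, 19.7 and 24.02 at day 2, and 16.4, 18.4 and 21.7 at day 3. Its groups overlapped on every day, and its log2 fold changes were 0.03, -0.02 and -0.09 at days 1, 2 and 3, each ± 0.10. Tnfaip3 had CPM of 5.70, 7.29 and 9.12 in vehicle, 5.30, 6.47 and 7.31 at day 1, 6.24, 7.19 and 8.14 at day 2, and 6.47, 7.32 and 7.97 at day 3. Its lowest group was day 1, with 5 of 6 libraries below the vehicle median and the groups overlapping. Tnfaip3 log2 fold changes were -0.19 ± 0.11 (edgeR adjusted p = 0.749), -0.03 ± 0.11 and -0.01 ± 0.11. The 95% intervals at day 3 ran from a ratio of 0.811 to 1.08 for Nfkbia and from 0.852 to 1.15 for Tnfaip3. Nfkbia holds the consensus match shown above 29 to 20 bases before its start, and Tnfaip3 holds 2 before its first start site.

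Il1a encodes interleukin 1 alpha, a cytokine and alarmin that microglia make and release. It was counted in 0 to 18 reads per library. CPM were 0, 0.221 and 0.457 in vehicle, 0.127, 0.371 and 0.550 at day 1, 0.180, 0.421 and 0.533 at day 2, and 0.395, 0.724 and 0.963 at day 3. Day 3 held 83 reads in all and vehicle 30, and 5 of 6 day 3 libraries lay above every vehicle library. The log2 fold change was 0.39 ± 0.45 at day 1, 0.63 ± 0.44 at day 2 and 1.43 ± 0.40 (edgeR adjusted p = 0.145) at day 3, where the 95% interval ran from a ratio of 1.53 to 4.77. Day 3 against day 1 gave 1.04 ± 0.38 (edgeR adjusted p = 0.327). The filter asked for about 0.528 CPM in enough libraries, which 5 of 6 day 3 libraries reached and 0 of 6 vehicle libraries did, so a higher day 3 value was built into its passing. In the 3 Ttr-rich day 3 libraries Il1a stood at 0.713 to 0.963 CPM and in the other 3 at 0.395 to 0.735 CPM. Without all Ttr-rich libraries the day 3 log2 fold change against vehicle was 1.37 ± 0.55 (edgeR adjusted p = 0.860). Against day 1 it was then smaller, at 0.63 ± 0.53 (edgeR adjusted p = 0.713).

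Tnf encodes tumour necrosis factor, the classical inducer of the pathway and one of its targets. It stood near the floor of detection, with 5 reads over the 6 vehicle libraries, 12 at day 1, 9 at day 2 and 19 at day 3. Reads were present in 5 of 6 day 3 libraries, at up to 0.301 CPM, and in 2 of 6 vehicle libraries, at up to 0.169 CPM. A library with 0 reads still allows up to 3, so presence and absence between these libraries is at the limit of the depth. Fitted without the filter, among 36066 genes, the log2 fold change was 1.08 ± 0.88 at day 1, 0.82 ± 0.90 at day 2 and 1.72 ± 0.85 (edgeR adjusted p = 0.935) at day 3. The 95% interval printed for day 3, a ratio of 0.993 to 10.98, was scaled with the filtered fit. It is somewhat too wide for the fit without the filter, where the unadjusted edgeR p was 0.0419. Leaving out 1 library at a time moved the Tnf value between 0.38 and 2.04 at day 1, 0.51 and 1.74 at day 2, and 1.45 and 2.70 at day 3. Without the Ttr-rich libraries the Tnf value at day 3 was 2.09 ± 1.21 (edgeR adjusted p = 0.991). Il1b encodes interleukin 1 beta, which needs inflammasome cleavage to become active. Its reads summed to 32 in vehicle, 25 at day 1, 17 at day 2 and 25 at day 3. The highest single library was a vehicle one at 0.602 CPM, and the groups overlapped. In the fit without the filter Il1b log2 fold changes were -0.42 ± 0.55, -0.83 ± 0.57 and -0.39 ± 0.54 at days 1, 2 and 3, with an edgeR adjusted p of 0.915 or more. At day 3 the fitted values of Il1a and Tnf were thus above 0 and that of Il1b below it, none of them called. Il1b overlaps the antisense gene Il1bos (0 to 10 reads per library against 0 to 11 for Il1b) and Il1a overlaps Gm14023 (0 to 4 reads), which cannot be told apart without strand.

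Icam1 encodes an adhesion molecule of endothelial cells, microglia and astrocytes that binds leukocyte integrins, and cytokines induce it through NF-kB. CPM were 1.1001, 1.78 and 2.54 in vehicle, 1.27, 1.72 and 2.86 at day 1, 1.61, 2.14 and 3.25 at day 2, and 2.54, 2.82 and 3.05 at day 3. It was the 1 member tested whose day 3 libraries all lay above all vehicle libraries, an order found for 0.692% of all genes tested, although the lowest day 3 and the highest vehicle library both round to 2.54 CPM. The log2 fold change was -0.02 ± 0.20 at day 1, 0.34 ± 0.20 at day 2 and 0.61 ± 0.20 (edgeR adjusted p = 0.310) at day 3, a ratio of 1.16 to 2.02 at the 95% level. Against day 1 the day 3 value was 0.63 ± 0.19 (edgeR adjusted p = 0.181). At day 1, replicate 1 stood at 2.86 CPM with the other 5 at 1.27 to 2.01 CPM. Leaving it out gave 0.81 with an edgeR adjusted p of 0.0433, under the threshold. That was the only call of this comparison in 24 fits leaving out 1 library, where the edgeR adjusted p reached 0.406. Of 11 other alternatives, 0 called it. The Ttr-poor day 3 libraries ranged from 2.54 to 2.74 CPM and the Ttr-rich ones from 2.89 to 3.05 CPM. Without all Ttr-rich libraries the day 3 log2 fold change against vehicle was 0.52 ± 0.28 (edgeR adjusted p = 0.997). Against day 1 it was then 0.55 ± 0.29 (edgeR adjusted p = 0.498). Icam1 overlaps Gm47079 on the opposite strand, which had 3 to 36 reads per library against 21 to 59 for Icam1.

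**Figure D2:**
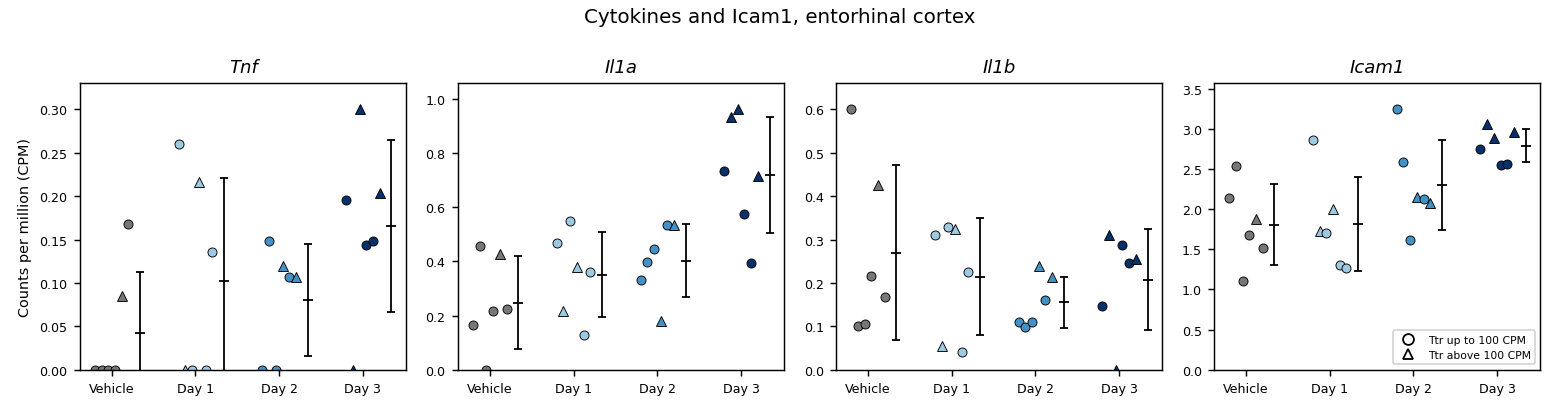
Each point is 1 library, in CPM on a linear axis from 0, for Tnf, Il1a, Il1b and Icam1 in vehicle and at days 1, 2 and 3. Triangles are libraries with Ttr above 100 CPM, and bars are the mean ± SD of 6 libraries, cut at 0. Icam1 at day 3 lies in a narrow band from 2.54 to 3.05 CPM, Il1a at day 3 reaches 0.963 CPM, and Tnf and Il1b stay at or below 0.602 CPM with many libraries at or near 0.

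**Figure D3:**
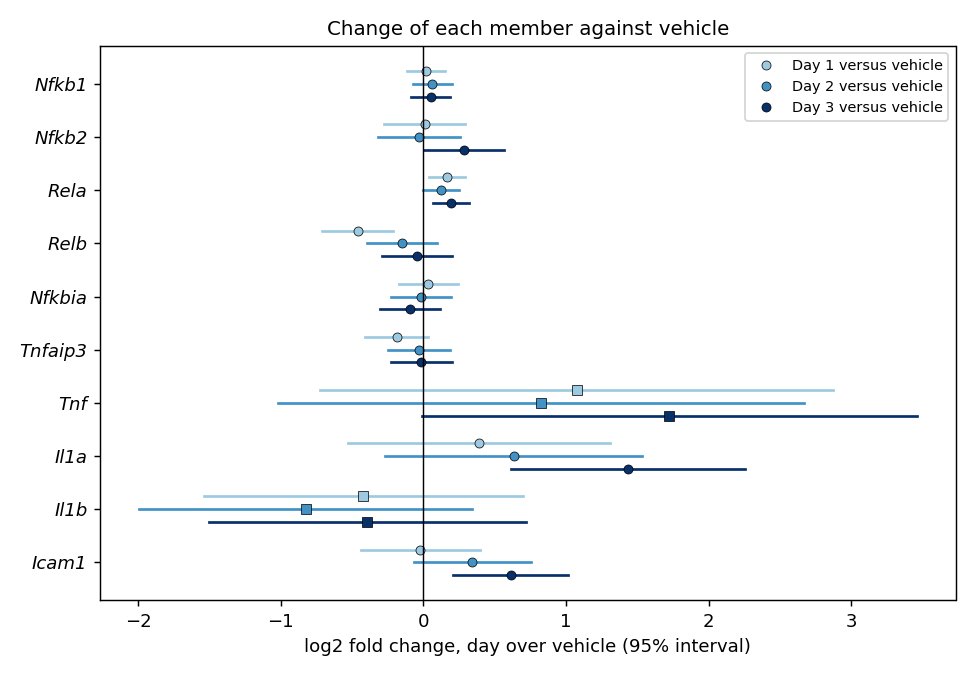
Log2 fold change of each member, day over vehicle, with its 95% interval from edgeR, 3 days per gene. Circles come from the fit with the filter and squares, for Tnf and Il1b, from the fit without it. The intervals of the squares were scaled with the filtered fit and are somewhat too wide. Intervals are narrowest for Nfkb1 and Rela, with an SE of at most 0.07, and widest for Tnf, with an SE of at most 0.90. No point was called after adjustment.

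Of the 7 lists of other pathway genes, none had a call at day 1, and Cd40 was the 1 call at day 2. Of 18 TNF and IL-1 family ligands and receptors (Tlr2 and Tlr4 among them), 15 passed the filter, and 2 rose at day 3 and none fell. Tlr2, a pattern receptor that signals to NF-kB through Myd88, was at 2.87 ± 0.875 CPM at day 3 and 0.782 ± 0.256 CPM in vehicle (SD, n = 6 each). All 6 day 3 libraries lay above every vehicle library, and the log2 fold change was 1.89 ± 0.29 (edgeR adjusted p = 0.000333). It also rose at day 3 against day 1, by 1.31 ± 0.27 (edgeR adjusted p = 0.0155), a call lost without day 1 replicate 5 or 6 or day 3 replicate 6, and with the first digits of the animal number as a factor (edgeR adjusted p = 0.0851). Cd40, a TNF receptor family member that feeds the non-canonical pathway, was at 0.868 ± 0.298 CPM at day 3 and 0.295 ± 0.0801 CPM in vehicle. Its day 3 log2 fold change was 1.52 ± 0.33 (edgeR adjusted p = 0.0162). That call was lost with limma voom, and without vehicle replicate 3 or 4 or day 3 replicate 1 or 4. Cd40 reached the filter's 0.528 CPM in 0 of 6 vehicle libraries, 4 at day 1, 6 at day 2 and 5 at day 3. A value above vehicle was thus built into its passing, at day 2 as at day 3. With only day 3 and vehicle compared, Cd40 did not pass the filter and gave no value. At day 2 Cd40 was at 0.942 ± 0.297 CPM, all 6 libraries above every vehicle library, and rose by 1.63 ± 0.33 (edgeR adjusted p = 0.0473), a call that held in 6 of 24 fits leaving out 1 library. That day 2 call was also lost without the Ttr-rich libraries (edgeR adjusted p = 0.188), with limma voom and with only the compared groups. It was lost as well with the first digits of the animal number as a factor.

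Of 21 kinases and adaptors upstream of NF-kB, all 21 passed the filter and 0 were called on any day, with a median day 3 log2 fold change of -0.01 against 0.00 over all genes. Irak4, the kinase that Myd88 recruits, had the smallest p (0.60 ± 0.20, edgeR adjusted p = 0.410), and Myd88 itself stood at 0.19 ± 0.14. The 10 other feedback inhibitors gave 0 calls and a median of -0.03. Among them Zc3h12a, an RNase that degrades cytokine RNA, stood at -0.33 ± 0.25 and Cyld, a deubiquitinase, at -0.05 ± 0.04. Of 9 genes for cytokine processing, 8 passed the filter and 0 were called. The nearest was the inflammasome sensor Nlrp3, at 0.86 ± 0.23 (edgeR adjusted p = 0.0943), which was called when vehicle replicate 2 or day 3 replicate 5 was left out, and its adaptor Pycard stood at 0.51 ± 0.20 (edgeR adjusted p = 0.627).

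Of 6 other Rel and IkB genes, 0 were called against vehicle on any day, and all 6 had a day 3 log2 fold change above 0, with a median of 0.13. Bcl3, an atypical IkB protein that works in the nucleus with p50 and p52, rose at day 3 against day 1. It stood at 0.944 ± 0.306 CPM at day 3 and 0.376 ± 0.160 CPM at day 1, a log2 fold change of 1.30 ± 0.32 (edgeR adjusted p = 0.0487) that held in 6 of 24 fits leaving out 1 library and in 3 of 10 other alternatives. Without the Ttr-rich libraries the Bcl3 value was 0.93 (edgeR adjusted p = 0.369). The call was also lost with the first digits of the animal number as a factor, limma voom, other size factors and no term for sex. Among 23 other NF-kB target genes, 13 passed the filter and 0 were called at day 3 against vehicle. Plau, which encodes urokinase, rose at day 3 against day 1, at 4.88 ± 1.03 CPM and 3.04 ± 0.375 CPM, by 0.69 ± 0.15 (edgeR adjusted p = 0.0249), a call lost without day 1 replicate 2, 4, 5 or 6 or day 3 replicate 1 or 6. It was also lost without the Ttr-rich libraries (edgeR adjusted p = 0.143). With the first digits of the animal number as a factor it was lost too (edgeR adjusted p = 0.0835).

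Icam1 is bound by integrins of leukocytes and microglia. Of 8 ICAM family and leukocyte integrin genes, 7 passed the filter, and 2 rose at day 3 and none fell. Itgax, the CD11c integrin chain, was at 1.44 ± 0.232 CPM at day 3 and 0.392 ± 0.229 CPM in vehicle, and no day 3 library overlapped vehicle (log2 fold change 1.96 ± 0.35, edgeR adjusted p = 0.00163). Itgb2, the shared CD18 chain of the integrins that bind Icam1, was at 6.43 ± 1.24 CPM at day 3 and 4.07 ± 0.757 CPM in vehicle (0.68 ± 0.14, edgeR adjusted p = 0.0113). Its day 3 call was lost without vehicle replicate 6, without day 3 replicate 1 and without the Ttr-rich libraries. Against day 1 the day 3 values were 2.04 ± 0.34 (edgeR adjusted p = 0.00203) for Itgax and 0.66 ± 0.14 (edgeR adjusted p = 0.0165) for Itgb2, the second lost without day 1 replicate 5 or 6 or day 3 replicate 1 or 6. Without the Ttr-rich libraries the Itgb2 value against day 1 was 0.55 (edgeR adjusted p = 0.216), not called. With the first digits of the animal number as a factor the Itgax value against day 1 was 1.80 (edgeR adjusted p = 0.0707), not called either. In females or males alone, of all calls named in these lists, Tlr2 at day 3 against vehicle was called in females and the rest were not.

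**Figure D4:**
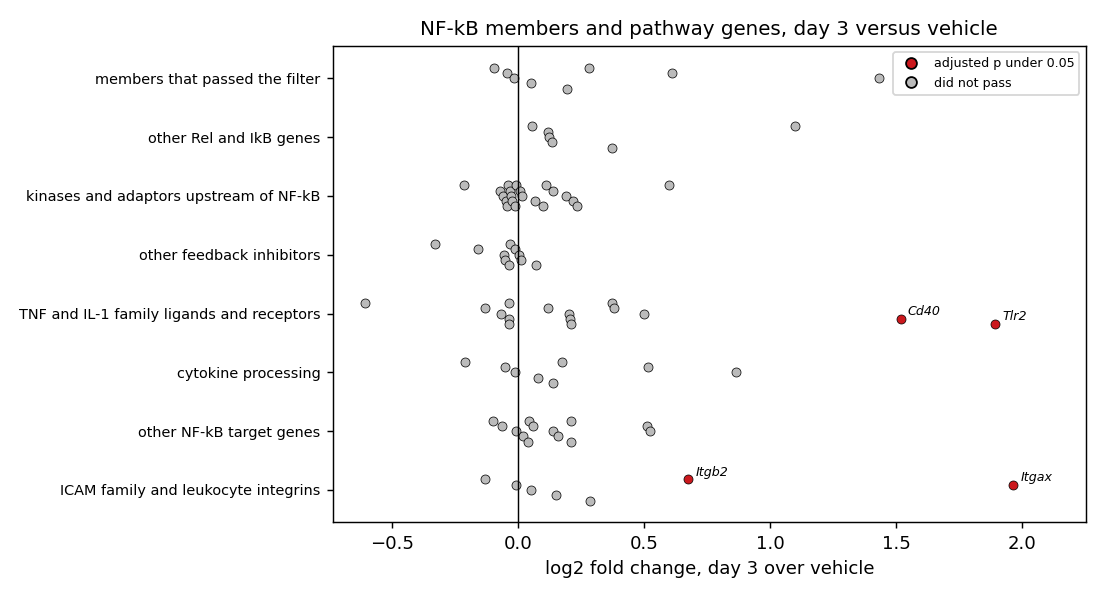
Each point is 1 gene that passed the filter, placed by its log2 fold change at day 3 over vehicle, in rows for the members and 7 other lists of pathway genes. Red points passed an adjusted p under 0.05 in edgeR and grey points did not. The 4 red points are Tlr2 and Cd40 among the receptors and Itgax and Itgb2 among the integrins, and the rows of kinases and of feedback inhibitors sit around 0.

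Cell type markers moved in part with these values. Of 10 microglia markers, all passed the filter, and all 10 had a day 3 log2 fold change above 0 against vehicle. Their median was 0.19, against -0.0016 over all genes tested. The unadjusted edgeR p was under 0.05 for 6 of 10, against 5.64% of all genes tested. After adjustment 3 were called, all higher, among them Cx3cr1 (0.26 ± 0.06) and Trem2 (0.48 ± 0.08). The 10 together summed to 327 to 392 CPM at day 3 and 284 to 332 CPM in vehicle. Of 8 endothelial markers 0 were called, and their sum was 236 to 289 CPM at day 3 and 219 to 293 CPM in vehicle. Of 11 blood leukocyte markers 0 passed the filter, with sums of at most 1.83 CPM at day 3 and 1.86 CPM in vehicle. Border macrophage markers summed to 8.72 to 13.2 CPM at day 3 and 6.55 to 15.3 CPM in vehicle, and astrocyte markers to 4709 to 5230 CPM at day 3 and 4556 to 5417 CPM in vehicle, with 0 called in either list. Choroid plexus markers summed to 21.7 to 1200 CPM at day 3 and 16.6 to 1289 CPM in vehicle, and red blood cell transcripts to 94.2 to 167 CPM at day 3 and 65.4 to 157 CPM in vehicle, again with 0 called. The part of microglia or choroid plexus in the values of Il1a, Icam1, Tlr2 and the integrins was not tested. Without the Ttr-rich libraries Tlr2, Cd40 and Itgax were still called at day 3 against vehicle.

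No member's change was found to differ between females and males. The interaction of day and sex was called for 0 of 8 members on any day, as for 0 of all 16767 genes, with edgeR adjusted p-values of 0.999 or more. The smallest p among them was that of Nfkb2 at day 1, whose log2 fold change was 0.53 ± 0.28 higher in males than in females.

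Across all 24 libraries, the genes whose log2 CPM ran most like each member's were described by Pearson's r. The libraries share depth scaling and groups, so these values are descriptions over 16767 genes, and picking the highest of so many raises them. After group and sex were taken out, the same pairs ran from 0.53 (Relb with Grin2c) to 0.84 (Nfkb2 with Triap1). For Il1a they were Nsl1 and Ctsz, both at 0.78, and Ctsz encodes the lysosomal protease cathepsin Z. For Icam1 they were Itpripl2 (0.80) and Trim25 (0.79), and Trim25 encodes a ubiquitin ligase of the antiviral RIG-I pathway. Relb ran with Fads2 and Grin2c, both at 0.75. Rela ran with Gli1 and Zcwpw1, both at 0.70, Nfkb1 with Haus4 (0.74) and 4930481A15Rik (0.73), and Nfkb2 with Triap1 (0.78) and Washc1 (0.73). Nfkbia ran with Ddit4 and Plekhf1, both at 0.73, and Ddit4 is a stress and glucocorticoid response gene. Tnfaip3 ran with Armc10 (0.73) and Crym (0.72). No member was among another member's nearest genes.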

How the data were processed

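The authors deposited raw counts, as whole numbers for each gene in 24 libraries. Per the submitters' processing notes, fastp 0.23.1, STAR 2.7.9a and DESeq2 1.32.0 were used with build mm39; for their roles, the counting program and its use of strand the sources used here give nothing. The main test was the two-sided quasi-likelihood test of edgeR 4.0.16 (TMM factors, filterByExpr with minimum count 10 and minimum total 15) in R 4.3.3, with group and sex as terms over all 24 libraries. The common biological coefficient of variation was 8.51%. The 60 within-group library pairs differed by more than sampling noise (chi-square per degree of freedom 3.71 to 12.6). Tnf and Il1b were fitted without the filter. SE was derived from the F statistic. Alternatives were DESeq2 1.42.0, limma 3.58.1 voom, other normalizations, filters and subsets. The members, lists and naming rule (all members; called genes of each list, otherwise the 2 smallest p at day 3; the 2 most correlated genes) were chosen with earlier results of these data known. The edgeR step was tested on simulated data. Depth sets the precision of low genes, and limits at 0 reads cover counting error only. Promoters came from RefSeq (GRCm38.p6), another build than the authors', and exon lengths from another annotation. Values of some marker genes are not reported here.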

Additional observations from a re-analysis of the deposited data

Results flagged for a closer look

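Relb in day 3 replicate 4 stood at 8.11 CPM, apart from the other 5 day 3 libraries at 6.08 to 6.78 CPM. Dixon's test for a single far sample picked it out, in 32 groups of 6 examined, and chance alone picks out about 5% of groups. The day 3 log2 fold change of Relb against vehicle was not called with all libraries.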

How the results depend on the processing

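No paired analysis was possible because replicate numbers follow accession order and pair no samples. The count of 0 members called held in all alternatives run but 2. DESeq2 called 1 member at day 1 (Relb), and at day 3 against day 1 the count was 0 to 1 when 1 library was left out (Icam1, without day 1 replicate 1). Counts over all genes depended on the setting. At day 1 (11) they were 75 with DESeq2, 31 with the first digits of the animal number as a factor, 159 with no filter, 2 in females and 0 in males alone, and 4 to 28 leaving out 1 library. At day 2 (11) they were 18 with DESeq2, 7 with limma voom, 86 with no filter, 7 with a filter of 1 CPM in 6 libraries, 3 with only the compared groups, 0 in females and 0 in males, 2 without the Ttr-rich libraries, and 7 to 12 leaving out 1 library. At day 3 (103) they were 217 with no filter, 35 in females, 12 in males and 49 without the Ttr-rich libraries. For day 3 against day 1 (109) they were 53 with the first digits of the animal number and 295 with no filter. There they were also 10 in females, 13 in males, 47 without the Ttr-rich libraries, and 44 to 117 leaving out 1 library. The joint test (108) gave 433 with no filter and 208 with DESeq2's likelihood ratio test.

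Some log2 fold changes that were not called changed sign, most of them near 0. The largest such change was that of Tnf at day 2, at 0.82 with all libraries, and Il1b at day 1 (-0.42) and day 3 (-0.39), Il1a at day 1 (0.39) and Zc3h12a at day 3 (-0.33) were not near 0 either. With the first digits of the animal number as a factor, Nfkb1 was -0.00054 and Icam1 0.0062 at day 1. In the same fit Nfkb2 was 0.068, Nfkbia 0.013 and Tnfaip3 0.041 at day 2. In females alone, Nfkb2 was -0.22, Il1a -0.11 and Icam1 0.10 at day 1, Nfkbia 0.10 at day 2, and Il1b 0.17 and Zc3h12a 0.072 at day 3. In males alone, Nfkb1 was -0.0089, Nfkb2 0.12, Tnfaip3 0.030 and Tnf -1.07 at day 2, Tnfaip3 0.038 at day 3, and Rela -0.00069 and Il1b -0.74 at day 3 against day 1. Without the Ttr-rich libraries, Nfkb1 was -0.044 at day 1 and -0.0052 at day 2, Tnfaip3 0.065 at day 2 and 0.038 at day 3, and Il1b 0.063 at day 3. With voom, Tnfaip3 was 0.0036 at day 3 and Il1b -0.031 at day 3 against day 1, where the model without sex gave Il1b -0.0069. With only the compared groups, Nfkb2 was -0.0055 at day 1. Leaving out 1 library, day 1 values ran from -0.016 to 0.057 for Nfkb1, -0.047 to 0.086 for Nfkb2, -0.047 to 0.086 for Nfkbia, -0.22 to 0.094 for Icam1 and -0.64 to 0.012 for Il1b. Day 2 values ran from -0.12 to 0.041 for Nfkb2, -0.084 to 0.039 for Nfkbia and -0.091 to 0.043 for Tnfaip3. At day 3 they ran from -0.11 to 0.042 for Relb and -0.075 to 0.059 for Tnfaip3, and against day 1 from -0.013 to 0.057 for Rela and -0.21 to 0.30 for Il1b. The cause was not tested. Il1a, Cd40 and Bcl3 did not pass the filter in some subsets and gave no value there, and Tnf and Il1b were run without the filter throughout. Depth limits the cytokines most, with at most 18 reads per library for Il1a, 11 for Il1b and 5 for Tnf.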
